A study of Mus musculus with 4 samples.

Results

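The growth hormone, insulin-like growth factor (IGF) and insulin pathway was followed in mouse liver through 10 genes, namely Ghr, Stat5b, Socs2, Igf1, Igfals, Igfbp1, Igfbp2, Insr, Irs1 and Irs2. They were chosen by symbol, and all 10 were among the 24346 symbols listed in each library. The livers came from male ob/ob mice, which lack leptin and become obese. The 4 groups were CD (control diet), CD+7KC (control diet with 7-ketocholesterol, a cholesterol oxidation product), WD (Western diet, rich in fat and sucrose) and WD+7KC. All 4 diets contained 1% cholesterol, 7KC made up 0.01% of the diets that held it, and feeding began at 6 weeks of age and lasted 4 weeks. All groups therefore shared the leptin deficiency and the added cholesterol, and no lean or wild-type mouse was analysed here. Each group had 1 library, so differences between groups could not be set against the spread between mice, and none was tested. Whether each library stands for a single mouse or for a pool, and the feeding state and hour at which liver was taken, are not given in the sources used here.

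Growth hormone binds its receptor on hepatocytes, the receptor activates the kinase JAK2, and JAK2 phosphorylates STAT5B, which enters the nucleus and drives transcription of Igf1, Igfals and Socs2. Hepatic IGF1 circulates bound to IGF-binding proteins and to the acid-labile subunit encoded by Igfals, and it feeds back on growth hormone release. Insulin acts on the liver through its receptor and the adaptors IRS1 and IRS2, and it represses Igfbp1, G6pc and Irs2 by keeping the factor FOXO1 out of the nucleus.

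The values are FPKM (fragments per kilobase of transcript and per 1000000 mapped fragments), which are scaled for transcript length and library size. Low FPKM values lay on steps of whole reads, from which 10940000 fragments were estimated for CD, 11020000 for CD+7KC, 9440000 for WD and 12110000 for WD+7KC. Fold changes are log2 differences of FPKM + 0.1, and the range behind each is a 95% exact interval that covers counting error only. The hepatocyte markers were the most abundant of the marker lists, with 8 of 8 detected and a summed level of 47339 to 59296 FPKM. Macrophage markers summed to 119 FPKM (CD), 213 (CD+7KC), 233 (WD) and 461 (WD+7KC). Endothelial markers summed to 71.4, 96.8, 53.5 and 140 FPKM in the same order. In whole liver, fewer cells of a type and less RNA per cell cannot be told apart. The FPKM of all genes summed to 602059 in WD+7KC and to between 696062 and 715605 in the other libraries. Scaling to equal sums moved the median over the genes tested in WD+7KC relative to WD from -0.03 to 0.18 on the log2 scale.

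The sequences upstream of Igfbp1, Irs1 and Irs2 are shown because they hold the letters CAAAACAA, the core of the insulin response element known from IGFBP1, and that upstream of Igfbp2 because this gene differed most of the 10 between WD+7KC and WD. Each is the 250 bases before a RefSeq start on GRCm38.p6, written 5′ to 3′ on the strand of the gene, with matches on either strand in capitals. Igfbp1 is at chr11:7197537-7197786 on the plus strand, Irs1 at chr1:82291440-82291689 and Irs2 at chr8:11008930-11009179 on the minus strand, and Igfbp2 at chr1:72824230-72824479 on the plus strand.
Igfbp1: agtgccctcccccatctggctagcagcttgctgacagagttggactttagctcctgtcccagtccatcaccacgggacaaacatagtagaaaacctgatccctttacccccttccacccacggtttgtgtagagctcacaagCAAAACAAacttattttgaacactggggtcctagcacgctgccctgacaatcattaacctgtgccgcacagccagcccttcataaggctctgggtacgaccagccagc
Irs1: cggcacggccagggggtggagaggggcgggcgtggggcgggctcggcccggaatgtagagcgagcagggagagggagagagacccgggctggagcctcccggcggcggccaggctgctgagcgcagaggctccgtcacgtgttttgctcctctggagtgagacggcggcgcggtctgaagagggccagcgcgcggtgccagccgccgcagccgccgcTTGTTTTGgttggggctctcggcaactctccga
Irs2: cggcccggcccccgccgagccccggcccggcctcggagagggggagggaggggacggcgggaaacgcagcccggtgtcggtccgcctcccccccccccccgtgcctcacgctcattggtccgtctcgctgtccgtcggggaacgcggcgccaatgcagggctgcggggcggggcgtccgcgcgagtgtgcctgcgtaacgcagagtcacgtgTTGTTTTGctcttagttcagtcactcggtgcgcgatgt
Igfbp2: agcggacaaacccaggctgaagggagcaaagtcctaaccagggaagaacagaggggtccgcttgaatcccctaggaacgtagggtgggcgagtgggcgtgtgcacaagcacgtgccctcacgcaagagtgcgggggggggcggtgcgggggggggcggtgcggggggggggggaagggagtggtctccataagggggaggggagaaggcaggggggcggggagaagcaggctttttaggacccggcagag
Counted from the start, with -1 as the base before it, the match lay at -108 to -101 in Igfbp1, at -33 to -26 in Irs1 and at -38 to -31 in Irs2, with the last 2 on the opposite strand. CAAAACAA was found in 2.21% of 32851 promoter windows of the same length. The STAT5 palindrome TTCNNNGAA, which reads the same on both strands, was found in 7.02% of windows and, among the genes with a window, only before RefSeq starts of Igfals. Its 2 matches there are shown in capitals with the bases around them, at chr17:24877598-24877626 and chr17:24878163-24878191 on the plus strand.
Igfals, upstream match: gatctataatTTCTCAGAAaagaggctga
Igfals, downstream match: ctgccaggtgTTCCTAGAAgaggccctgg
The forkhead core GTAAACA was found in 3.17% of windows and matched, on the opposite strand, at -242 to -236 from the start that the downstream Igfals match belongs to. No match overlapped another. Windows were at hand for 8 of the 10 genes, and Socs2 and Insr were not searched. Both Igfals matches lie inside the annotated span of the gene, and 188 of the 250 bases of the window with the upstream match lie in an annotated Igfals exon. The Igf1 window lies in annotated Igf1 exons over all its 250 bases, so sequence in front of the whole Igf1 gene was not searched. A match is a run of letters and not a binding site, and the choice of Irs1 and Irs2 for display was made after the search.

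The growth hormone receptor was the most abundant of the 10 transcripts and lay lower with each step from CD to WD+7KC. Ghr (chromosome 15, 3317760 to 3583492, minus strand) was at 229 FPKM (CD), 212 (CD+7KC), 178 (WD) and 146 (WD+7KC). Each neighbouring pair in that order differed beyond counting error. In log2 fold change, Ghr was at -0.29 (interval -0.34 to -0.24) in WD+7KC relative to WD, -0.11 in CD+7KC relative to CD and -0.36 in WD relative to CD. With libraries scaled to equal sums, the first of these was -0.07 (interval -0.12 to -0.02).

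Stat5b, which encodes the transcription factor that carries the receptor's signal to the nucleus, was nearly level. Stat5b (chromosome 11, 100780731 to 100850724, minus strand) was at 10.7 FPKM (CD), 10.6 (CD+7KC), 8.83 (WD) and 9.40 (WD+7KC). Only the lower value in the WD libraries than in the CD libraries exceeded counting error, with a log2 fold change of -0.27 (interval -0.46 to -0.09) in WD relative to CD.

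Socs2, the STAT5 target whose protein shuts off the receptor, had the widest range of the 10 genes. Socs2 (chromosome 10, 95385362 to 95417180, minus strand) was at 2.38 FPKM (CD), 1.03 (CD+7KC), 4.51 (WD) and 3.38 (WD+7KC). Both WD libraries were above both CD libraries, and within each diet the library with 7KC was the lower. About 52.6, 23.0, 86.1 and 82.7 reads lay behind these values. The log2 fold change was -1.13 in CD+7KC relative to CD, 0.90 (interval 0.40 to 1.43) in WD relative to CD, and 1.62 (interval 1.04 to 2.45) in WD+7KC relative to CD+7KC. The interval in CD+7KC relative to CD was -1.99 to -0.48 when reads were estimated from the longest mRNA, but reached from -2.42 to 0.13 with the shortest. Between WD+7KC and WD the value was -0.41, with an interval of -0.86 to 0.04.

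Ghr and Socs2 thus stood in opposite order between diets, Ghr being lower and Socs2 higher in the WD libraries. The STAT5-regulated inhibitor Cish was at 2.18 FPKM (CD), 1.29 (CD+7KC), 3.07 (WD) and 5.37 (WD+7KC). Like Socs2 it was lowest in CD+7KC, but it was highest in WD+7KC, where Socs2 was below its WD value. Its log2 fold change was 0.78 (interval 0.40 to 1.21) in WD+7KC relative to WD and -0.71 (interval -1.36 to -0.14) in CD+7KC relative to CD. The prolactin receptor Prlr, which uses the same kinase, was at 25.7, 33.6, 14.5 and 11.001 FPKM in the order CD, CD+7KC, WD and WD+7KC. Of 13 further genes of growth hormone and cytokine signalling, 11 had a mean of at least 1 FPKM. Of the 11, 9 were higher and 2 lower in WD+7KC relative to WD, with a median of 0.28 beside -0.03 over all genes tested. Of the 10686 genes tested, 4841 were higher and 5825 lower. The leptin receptor gene Lepr, among the 9, passed the filter only through its high value in WD+7KC. It was at 0.765 FPKM (CD), 1.13 (CD+7KC), 1.05 (WD) and 1.60 (WD+7KC). None of the 11 was past 2-fold, beside 2.71% of all genes tested higher and 0.767% lower. Between WD+7KC and CD+7KC, Cish at 1.97 and Prlr at -1.60 were the only ones past 2-fold, beside 5.1% of all genes tested higher and 2.81% lower.

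**Figure D1:**
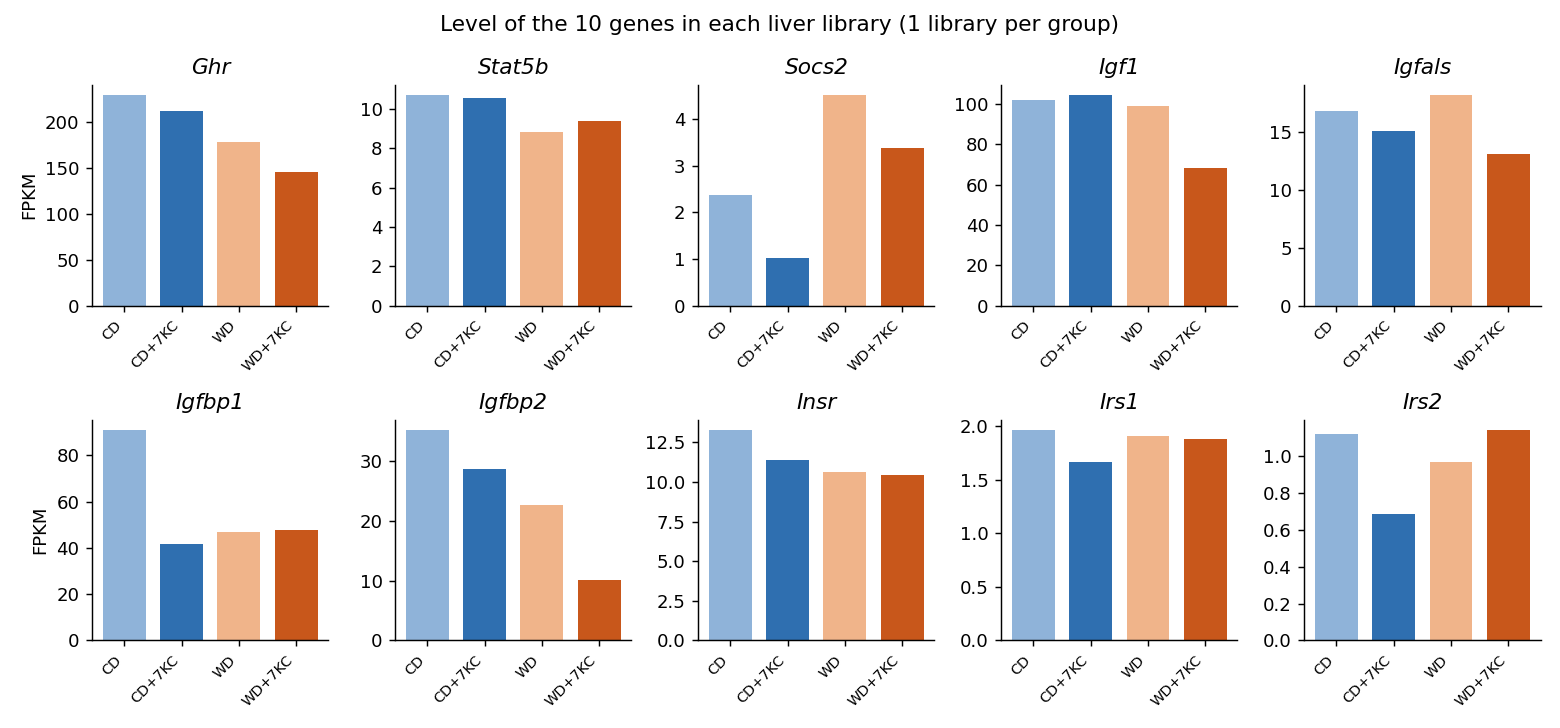
Level of each of the 10 genes in FPKM (vertical axis, from 0) in each of the 4 libraries, with 1 bar per library and no error bars because each group had 1 library. Igf1 is lower only in WD+7KC, Igfbp1 is high only in CD, and Ghr and Igfbp2 step down from CD to WD+7KC.

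Igf1, the hormone that growth hormone induces in liver, was lower in WD+7KC and close to level among the other 3 libraries. Igf1 (chromosome 10, 87858265 to 87937042, plus strand) was at 102 FPKM (CD), 104 (CD+7KC), 98.9 (WD) and 68.4 (WD+7KC). The first 3 did not differ beyond counting error between neighbours in order. Its log2 fold change was -0.53 (interval -0.58 to -0.48) in WD+7KC relative to WD and 0.03 (interval -0.02 to 0.08) in CD+7KC relative to CD. Of all genes tested, 4.07% were lower than Igf1 in the former comparison. With equal sums its value there was -0.32 (interval -0.37 to -0.26).

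Igfals encodes the acid-labile subunit, which holds IGF1 in a large complex in blood. Igfals (chromosome 17, 24865997 to 24882010, plus strand) was at 16.8 FPKM (CD), 15.1 (CD+7KC), 18.2 (WD) and 13.1 (WD+7KC). It was highest in WD and lowest in WD+7KC, and no neighbours in that order differed beyond counting error. Adding 7KC to WD went with a log2 fold change of -0.46 (interval -0.67 to -0.26), or -0.25 (interval -0.45 to -0.05) with equal sums. Igf1 and Igfals, both with STAT5 as a known activator, were thus both lower when 7KC was added to WD. The STAT5-regulated Cish was higher there, at 0.78 and beyond counting error, and Socs2 had an interval of -0.86 to 0.04. Stat5b was at 0.09 (interval -0.09 to 0.28), or 0.30 (interval 0.12 to 0.49) with equal sums. Activity of the STAT5B protein was not measured.

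Igfbp1, the insulin-repressed binding protein that limits free IGF1, was high in CD alone. Igfbp1 (chromosome 11, 7197782 to 7202546, plus strand) was at 90.9 FPKM (CD), 41.6 (CD+7KC), 46.7 (WD) and 47.6 (WD+7KC). The CD library was above the others by at least 0.80 on the log2 scale at the lower end of the counting interval. As a log2 fold change this was -1.13 (interval -1.27 to -0.99) in CD+7KC relative to CD and -0.96 (interval -1.10 to -0.82) in WD relative to CD. Between WD+7KC and WD it was 0.03 (interval -0.13 to 0.18). Every comparison in which Igfbp1 was lower thus rested on the CD library. Only 0.646% of genes tested were lower than Igfbp1 in CD+7KC relative to CD.

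Igfbp2, another hepatic IGF-binding protein, stepped down through the 4 libraries. Igfbp2 (chromosome 1, 72824503 to 72852474, plus strand) was at 35.2 FPKM (CD), 28.7 (CD+7KC), 22.7 (WD) and 10.2 (WD+7KC). Each neighbouring pair in that order differed beyond counting error. The log2 fold change was -1.15 (interval -1.48 to -0.85) in WD+7KC relative to WD, which is 2.23-fold lower, and only 0.487% of genes tested were lower. It was -0.29 (interval -0.50 to -0.09) in CD+7KC relative to CD and -0.63 (interval -0.87 to -0.40) in WD relative to CD. With equal sums the value in WD+7KC relative to WD was -0.93, short of 2-fold.

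The log2 fold change with 7KC under WD minus that under CD was -0.86 for Igfbp2, -0.56 for Igf1 and -0.31 for Igfals. Of genes tested, 2.36%, 6.92% and 19.8% had a lower difference. For Igfbp1 it was 1.16 and for Socs2 0.72, and 97.8% and 93.6% of genes tested had a lower difference. Irs2, below the filter, was at 0.84, and Ghr, Stat5b, Insr and Irs1 lay between -0.18 and 0.21. Under the deposited scaling, Igf1 differed beyond counting error with 7KC under WD and Igfbp1 under CD. With equal sums both did so under both diets, Igfbp1 being at 0.24 (interval 0.09 to 0.40) in WD+7KC relative to WD and Igf1 at 0.07 (interval 0.02 to 0.12) in CD+7KC relative to CD.

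Among 12 further genes of the IGF system, 5 had a mean of at least 1 FPKM. Igfbp4, a binding protein made in many tissues, was the most abundant at 560, 529, 678 and 578 FPKM in CD, CD+7KC, WD and WD+7KC. Igfbp3, the main carrier of IGF1 in blood and a product of non-parenchymal liver cells, was at 12.8, 16.3, 15.4 and 11.8 FPKM. Igf2r, the receptor that clears IGF2, was at 5.56, 5.84, 7.15 and 9.03 FPKM. The protease Htra1, which cleaves IGF-binding proteins, was at 2.03, 0.542, 1.38 and 1.34 FPKM, and was the only one of the 5 past 2-fold in any comparison. It was lower in CD+7KC relative to CD, beside 0.861% of all genes tested, and higher in WD+7KC relative to CD+7KC, beside 5.1%.

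Insr, the insulin receptor, was slightly higher in CD than in the other libraries. Insr (chromosome 8, 3122061 to 3279617, minus strand) was at 13.3 FPKM (CD), 11.4 (CD+7KC), 10.6 (WD) and 10.4 (WD+7KC). Only CD and CD+7KC differed beyond counting error among neighbours. The log2 fold change was -0.22 (interval -0.34 to -0.11) in CD+7KC relative to CD and -0.32 (interval -0.44 to -0.20) in WD relative to CD. It was -0.03 (interval -0.15 to 0.10) in WD+7KC relative to WD, and 0.19 with equal sums.

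The adaptors were scarce beside the receptor. Irs1 (chromosome 1, 82233101 to 82291416, minus strand) was at 1.96 FPKM (CD), 1.66 (CD+7KC), 1.91 (WD) and 1.88 (WD+7KC), and in the 4 comparisons every interval under the deposited scaling included 0. Irs2 (chromosome 8, 10984681 to 11008458, minus strand) was at 1.12, 0.688, 0.969 and 1.14 FPKM. Irs2, which insulin represses through FOXO1, was lowest in CD+7KC, with a log2 fold change of -0.63 (interval of the ratio -1.28 to -0.17) relative to CD, and 0.65 (interval 0.22 to 1.30) in WD+7KC relative to CD+7KC. Its estimated reads numbered only 46.4 to 84.6, and its mean of 0.979 FPKM put it below the 1 FPKM filter, so it enters none of the counts past 2-fold. Irs1 was at -0.23 (interval -0.55 to 0.07) in CD+7KC relative to CD, where 17.3% of genes tested were lower.

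Other genes of insulin signalling, taken as a list, had medians near those of all genes tested. Of 38 listed genes, such as the kinase Akt2 at 34.9 to 37.4 FPKM, 37 passed the filter and none was past 2-fold in any of the 4 comparisons. Of all genes tested, 0.767% to 5.1% were past 2-fold in a given comparison and direction, so the lack of such genes among 37 says little about this list. Between WD+7KC and WD, 18 were higher and 19 lower in the former, with a median of -0.03, or 0.19 with equal sums. The extremes were Cblb, a ubiquitin ligase, at 0.54 (interval 0.19 to 0.96), and Trib3, an inhibitor of AKT, at -0.71 (interval -1.08 to -0.36).

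Transcripts that insulin and FOXO1 control are given as single genes. G6pc, the glucose-releasing phosphatase that insulin represses, was at 182 FPKM (CD), 183 (CD+7KC), 144 (WD) and 67.5 (WD+7KC). Its log2 fold change of -1.10 (interval -1.18 to -1.01) in WD+7KC relative to WD was past 2-fold, and it was -0.88 with equal sums. Pck1, a gluconeogenic enzyme that insulin represses, was at 849, 768, 849 and 790 FPKM in the same order. Pdk4, which spares glucose from oxidation, was at 12.6, 9.38, 7.08 and 10.5 FPKM.

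**Figure D2:**
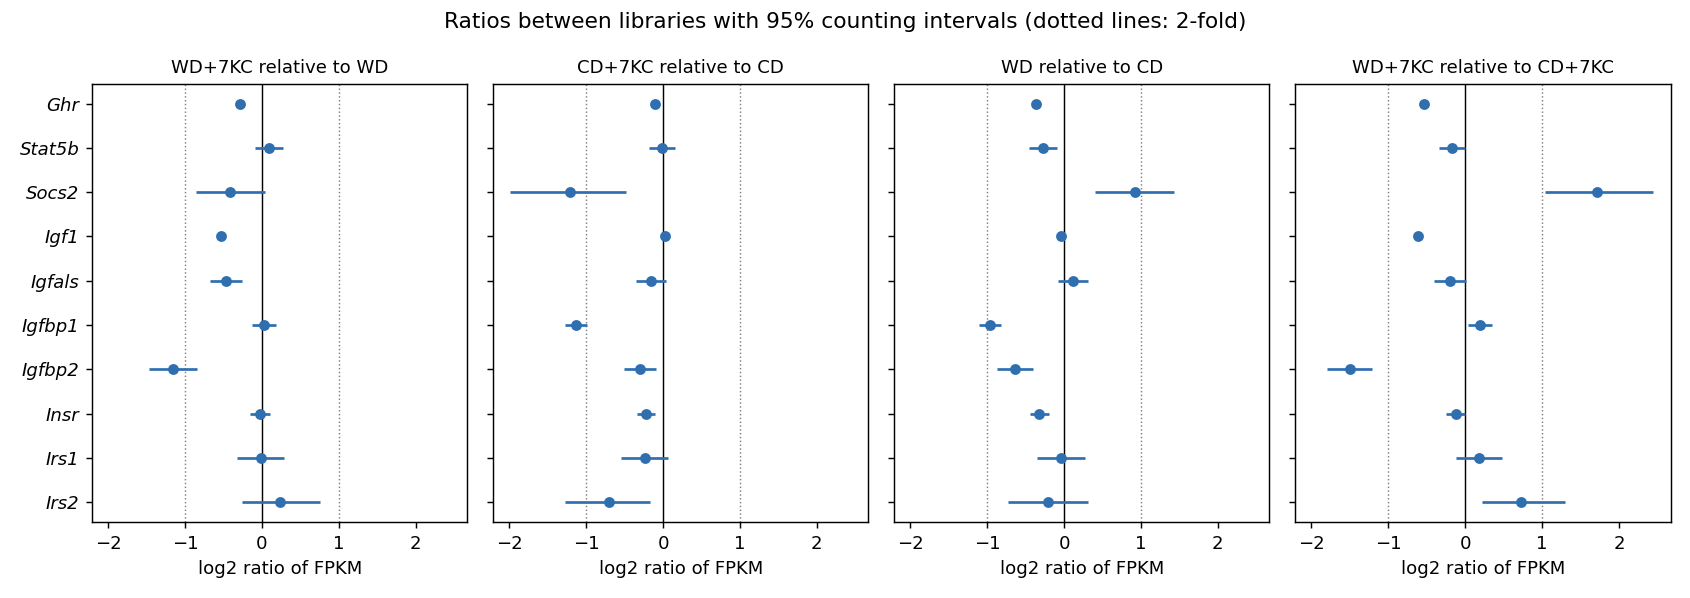
Log2 ratio of FPKM without a pseudocount (horizontal axis) for each of the 10 genes in 4 comparisons, with 95% counting intervals as bars and 2-fold as dotted lines. Intervals are wide for Socs2 and Irs2, and Igfbp2 lies furthest left in both comparisons of WD+7KC.

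Counted together, few of the 9 genes that passed the filter were past 2-fold. In WD+7KC relative to WD, 1 of 9 was lower (Igfbp2) and 0 were higher, where 0.767% and 2.71% of the 10686 genes tested were. In CD+7KC relative to CD, 2 of 9 were lower (Igfbp1 and Socs2) and 0 higher, beside 0.861% and 1.18% of all genes. In WD relative to CD no member was past 2-fold, beside 2.61% higher and 2.04% lower. Between WD+7KC and CD+7KC, Socs2 was higher and Igfbp2 lower in the former, beside 5.1% and 2.81%. At 1.5-fold, 1 of 9 (Igfbp2) was lower in WD+7KC relative to WD and 0 were higher, beside 3.03% and 7.49% of all genes, and 2 were lower and 0 higher in CD+7KC relative to CD, beside 3.04% and 4.39%. In WD relative to CD, Socs2 was 1.5-fold higher, beside 8.57%, and Igfbp1 and Igfbp2 were lower, beside 6.92%. Between WD+7KC and CD+7KC, Socs2 was 1.5-fold higher, beside 11.8%, and Igf1 and Igfbp2 were lower, beside 8.32%. The comparisons share libraries and are not independent of each other.

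The medians of the 9 genes were -0.29 in WD+7KC relative to WD, -0.22 in CD+7KC relative to CD, -0.27 in WD relative to CD and -0.17 in WD+7KC relative to CD+7KC, while those over all genes tested lay between -0.03 and 0.00. The number of lower genes among the 9 was 7, 8, 7 and 6 in these comparisons. Of the 10686 genes tested, 5825, 5528, 5413 and 5626 were lower in the same order. Among all 10 genes, the counting interval of WD+7KC relative to WD lay below 0 for 4 (Ghr, Igf1, Igfals and Igfbp2), above 0 for 0 and included 0 for 6. With equal sums it lay below 0 for the same 4 and above 0 for 3. The share of all genes whose interval excluded 0 is not given here, so these counts only describe the members. Under other scalings the sign turned for Insr and Irs1 in WD+7KC relative to WD, for Stat5b in CD+7KC relative to CD, and for Igfals, Insr and Stat5b in WD+7KC relative to CD+7KC.

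Ratios of genes within a library do not depend on scaling between libraries. The Igf1 to Igfbp1 ratio was 1.12 (CD), 2.51 (CD+7KC), 2.12 (WD) and 1.43 (WD+7KC). The Igf1 to Igfbp2 ratio was 2.90, 3.63, 4.36 and 6.72 in the same order, so it was highest in the library where Igf1 itself was lowest. Igf1 and Igfals kept closer together, at ratios of 6.08, 6.91, 5.45 and 5.21. The Ghr to Insr ratio was 17.2, 18.6, 16.8 and 14.0, and the Ghr to Stat5b ratio was 21.4, 20.04, 20.2 and 15.5. Both receptor ratios were lowest in WD+7KC.

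**Figure D3:**
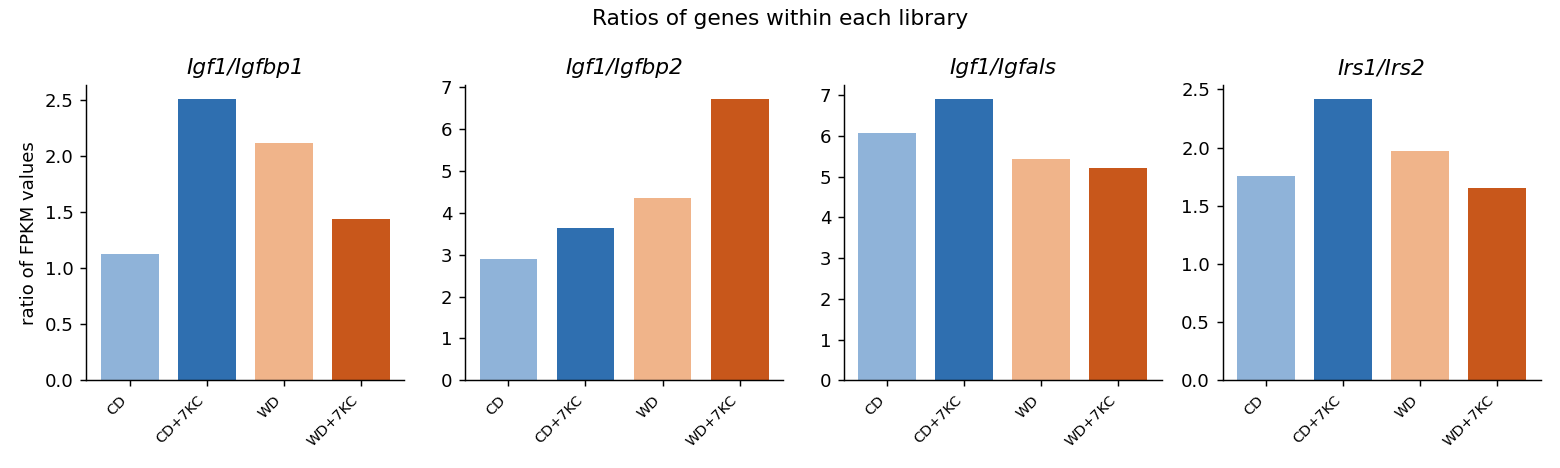
Ratio of FPKM values (vertical axis, from 0) of Igf1 to Igfbp1, Igfbp2 and Igfals and of Irs1 to Irs2 in each library, with 1 bar per library and no error bars. The Igf1 to Igfbp2 ratio steps up from CD to WD+7KC, and the Igf1 to Igfbp1 ratio is highest in CD+7KC.

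Growth hormone is released in pulses in male rodents and more steadily in females, and through STAT5B this pattern sets many sex-biased liver transcripts. Of 16 male-biased transcripts, 14 passed the filter, and most were lower in the WD libraries. In WD relative to CD, 12 of 14 were lower, 7 of them past 2-fold (Slco1a1 among them) beside 2.04% of all genes tested, with a median of -0.94. In WD+7KC relative to CD+7KC, 11 were lower, 8 past 2-fold beside 2.81%, with a median of -1.28. Slco1a1, which is in both counts, passed the filter only through its high value in CD. The values between WD+7KC and WD were smaller, with 12 lower, 2 past 2-fold beside 0.767%, and a median of -0.33, which was -0.13 with equal sums and -0.55 for those averaging 10 FPKM or more. The hepatocyte markers had a median of -0.23 in the same comparison. With 7KC under CD, 11 of the 14 male-biased transcripts were also lower and 3 higher, with a median of -0.16. Of the 11, 2 were past 2-fold lower (Slco1a1 among them) beside 0.861% of all genes tested. Elovl3, a fatty acid elongase, was at 54.6 FPKM (CD), 45.2 (CD+7KC), 9.71 (WD) and 4.41 (WD+7KC), and its log2 fold change was -3.33 (interval -3.69 to -3.04) in WD+7KC relative to CD+7KC. Bcl6, a repressor that growth hormone lowers, was at 8.04, 9.45, 3.94 and 3.46 FPKM.

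The other male-biased transcripts past 2-fold included members of close gene families. The organic anion transporter Slco1a1 was at 3.30, 0.721, 0.280 and 0.218 FPKM in the usual order, and only 8.5 and 8.4 reads were estimated in the WD libraries. Cml5 was at 22.5, 22.4, 7.99 and 9.69 FPKM. Cyp2d9, Cyp4a12a, Cyp4a12b, Ugt2b1 and Selenbp2 have near-identical copies, and their values are uncertain because reads can be shared among copies. Cyp4a12a was at 119, 109, 73.9 and 22.2 FPKM, Cyp4a12b at 15.4, 14.7, 3.08 and 2.73, and Cyp2d9 at 521, 305, 163 and 115. Ugt2b1 was at 298, 261, 124 and 96.1 FPKM. Selenbp2 went another way, at 9.63, 3.40, 5.24 and 7.44 FPKM.

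Most female-biased transcripts above the filter were higher with 7KC under CD. Of 22, 13 passed the filter. In CD+7KC relative to CD, 10 were higher, 4 of them past 2-fold beside 1.18% of all genes tested. In the same comparison 3 were lower, 1 past 2-fold beside 0.861%, and the median was 0.81, or 0.40 with no filter. The 4 were Cyp2a4, Cyp2b9, Cyp2b13 and Sult2a2, all with near-identical copies and so uncertain, and Sult2a2 passed the filter only through CD+7KC, where it was high. With 7KC under WD the list was more even. In WD+7KC relative to WD, 7 were higher, 2 past 2-fold beside 2.71%, and 5 lower, none past 2-fold beside 0.767%, with a median of 0.16. In WD relative to CD, 7 were higher, 2 past 2-fold beside 2.61%, and 6 lower, 4 past 2-fold beside 2.04%, with Sult2a2 among the 4. Of the same 13, 5 were higher, 2 past 2-fold, and 8 lower, 6 past 2-fold, in WD+7KC relative to CD+7KC. There, 5.1% of all genes tested were 2-fold higher and 2.81% 2-fold lower, and Sult2a2 was among the 6. Cyp17a1, a steroid hydroxylase, was at 11.8, 21.2, 31.5 and 69.1 FPKM, stepping up through the libraries in the order CD, CD+7KC, WD and WD+7KC. Sult1e1, the estrogen sulfotransferase, was at 40.2, 63.6, 4.61 and 27.5 FPKM, with a log2 fold change of 2.55 (interval 2.14 to 3.07) in WD+7KC relative to WD. Hao2 was at 1.98, 3.54, 1.44 and 0.849 FPKM, and Nipal1, which was lowest in CD+7KC, at 1.41, 0.542, 1.48 and 1.86.

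Of the female-biased genes with near-identical copies that passed the filter, all but Cyp2a4 were highest in CD+7KC. Cyp2b9 was at 97.4, 202, 116 and 100.4 FPKM, Cyp2b10 at 32.7, 64.4, 10.98 and 8.14, and Cyp2b13 at 9.72, 38.8, 3.66 and 5.11. Cyp2a4 was at 30.2, 115, 157 and 193 FPKM. Sult2a2 was at 1.02 in CD and 6.10 in CD+7KC and was listed at 0 in both WD libraries.

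**Figure D4:**
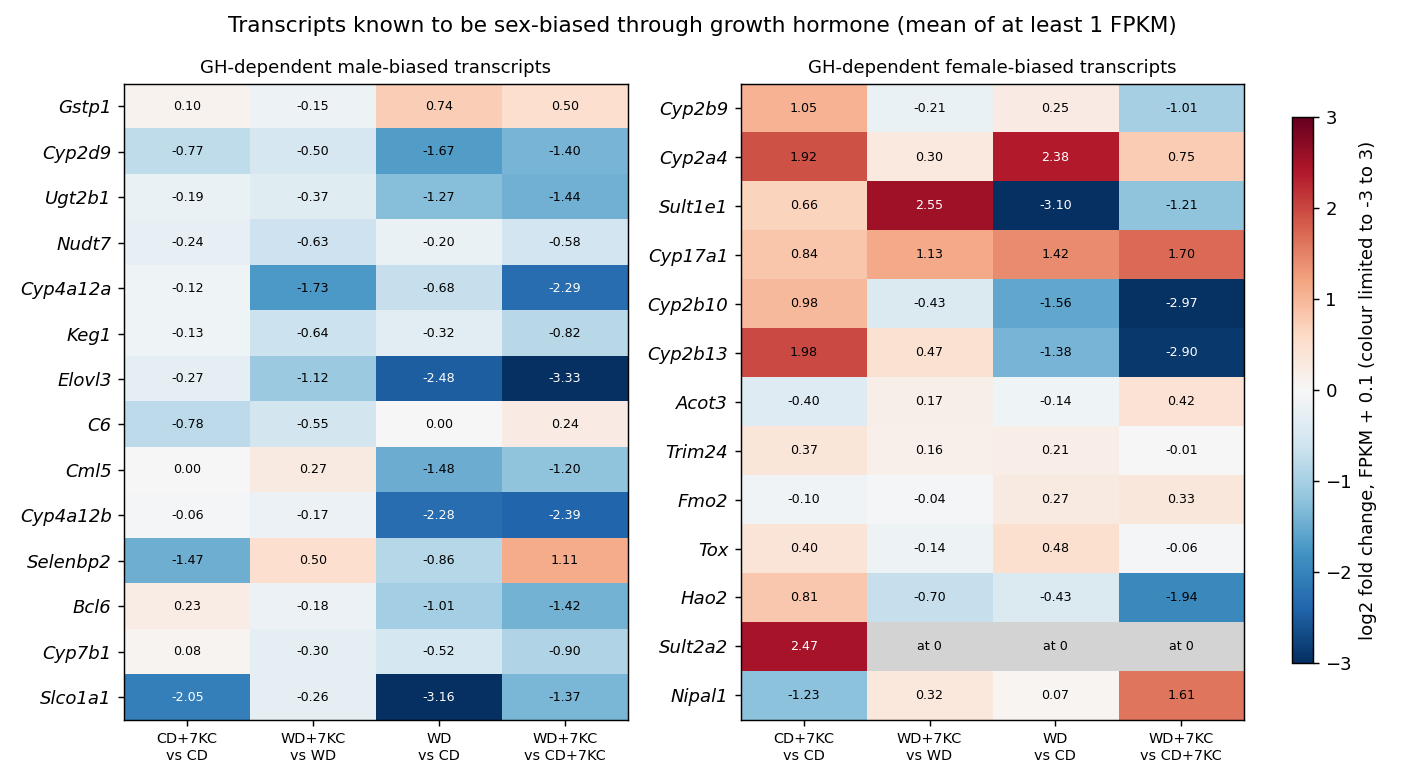
Log2 fold change of FPKM + 0.1 for male-biased (left) and female-biased (right) transcripts with a mean of at least 1 FPKM (rows) in 4 comparisons (columns), with the colour limited to -3 to 3 and grey cells where a library was listed at 0. Most male-biased transcripts are blue in the WD columns, and most female-biased ones are red in CD+7KC relative to CD.

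Over the 4 libraries, which is too few for a measure of co-variation, the genes with profiles nearest to the 3 most variable members were found by the distance between centred log2 values. Nearest to Igfbp2 were Car1 at a distance of 0.088, BC024139 at 0.13 and Cyp3a11 at 0.16. Cyp3a11, an abundant drug-metabolising cytochrome P450 with close copies that may share its reads, was at 3735 FPKM (CD), 3491 (CD+7KC), 2724 (WD) and 1214 (WD+7KC). Nearest to Igfbp1 were Gsn at 0.24, Cyr61 at 0.25 and Rps19-ps3 at 0.25, and nearest to Socs2 were Kiss1 at 0.28, Tgm1 at 0.32 and Gemin8 at 0.36.

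Markers of other cells differed between the same libraries as these genes. In WD+7KC relative to WD, 10 of 10 macrophage markers were higher (median 1.01) and 7 of 7 endothelial markers were higher (median 1.504), while 8 of 8 hepatocyte markers were lower (median -0.23, range -0.60 to -0.13). In CD+7KC relative to CD, 10 of 10 macrophage markers were higher (median 0.90), and 5 of 8 hepatocyte markers were lower (median -0.13). Stellate cell markers summed to 181, 146, 188 and 185 FPKM in CD, CD+7KC, WD and WD+7KC, and lymphocyte markers to between 1.67 and 7.34 FPKM. Of 5 cholangiocyte markers only Spp1 passed the filter, at 43.7 to 183 FPKM of a sum of 46.4 to 186. Fat cell markers summed to 182 to 314 FPKM, with Plin1, a defining fat cell gene, at 0 in every library. Of 4 acinar pancreas markers, 3 were at 0 in all libraries. By comparison, in WD+7KC relative to WD, Igfbp2 at -1.15 lay below the range of the hepatocyte markers. Igf1 at -0.53, Igfals at -0.46 and Ghr at -0.29 lay within it. Each of these lay below the marker median of -0.23, and Apoa1 alone set the lower end of the range at -0.60. The part of cell composition in these values was not tested.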

How the data were processed

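RNA was extracted from liver, and stranded mRNA libraries were sequenced as single-end reads of 75 bases. Per the labels, the submitters' processing notes name TopHat2 2.0.13, Bowtie2 2.2.3, SAMtools 0.1.19 and Cufflinks 2.2.1 with the mm10 build (GRCm38). The deposited tables hold FPKM, with 1 value for each symbol in a library. The annotation, the Cufflinks options and the use of strand in counting are not given in the sources used here. No columns of other samples were present.

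Groups came from the labels, with 1 library each, so that values were compared without a test. Log2 fold changes were taken on FPKM + 0.1, which understates changes of low genes. Genes whose 4 libraries averaged 1 FPKM or more were set against a 2-fold threshold (10686 genes tested, among them 9 of the 10 members). Library size was estimated from low FPKM values among 12212 genes with 1 RefSeq mRNA, and 1164 to 1272 values per library were low enough to use. At the library size chosen to fit them best, 73.2% to 74.5% of these values lay within 0.1 of a whole read. Reads per gene were FPKM times library size times the longest mRNA minus 200 bases, and 95% Clopper-Pearson intervals of the ratio without pseudocount were computed from them. Because PCR reads without molecular identifiers are not independent molecules, intervals cover counting error only. At 1 FPKM, 1 kilobase carried 9.44 to 12.1 reads.

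The members and the gene lists were chosen with earlier results of these data known. Besides members, the text names list genes past 2-fold in at least 1 comparison, the list genes highest and lowest in WD+7KC relative to WD, and the 3 genes nearest in profile to each of the 3 most variable members. Akt2, Pck1, Igfbp4 and Lepr lie outside that rule and were added after their values had been seen. An item, and the group result that needs it, is not reported here. Coordinates are from GENCODE vM21 and promoter windows from RefSeq (GRCm38.p6). On simulated counts for WD+7KC relative to WD over 19292 genes, 100.0% of 200 genes with a 4-fold change were past 2-fold in the right direction, as were 0.124% of 9658 unchanged genes in either direction, and 95.6% of 500 intervals held 0 for unchanged genes. The simulated counts held counting error only, and the intervals were given the simulated library sizes and mRNA lengths. The run therefore checks the computation and cannot show how well the intervals hold in these libraries. The alternatives were other pseudocounts, filters, thresholds and scalings and the shortest mRNA. Python 3.11.15, numpy 2.4.6, pandas 2.3.3, scipy 1.17.1 and matplotlib 3.10.9 were used.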

Additional observations from a re-analysis of the deposited data

Results flagged for a closer look

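Only the members and the list genes named by the rule above were screened, and many of these were named for large values in the same comparisons. For 8 of them the values moved in opposite directions in matched comparisons, each beyond its counting interval. The share over all genes was not computed, and with 1 library per group the difference was not tested. The Western diet contrast of Igfbp1 was -0.96 (log2) without 7KC and 0.20 with it. For Igfbp3 that contrast was 0.27 without 7KC and -0.46 with it, for Selenbp2 -0.86 and 1.11, and for Cyp2b9 0.25 and -1.01.

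The contrast of 7KC was -0.71 for Cish under CD and 0.78 under WD, and for Pdk4 it was -0.42 and 0.56. It was 0.39 and -0.39 for Prlr, 0.35 and -0.37 for Igfbp3, and -1.47 and 0.50 for Selenbp2. It was 0.98 and -0.43 for Cyp2b10, and 1.05 and -0.21 for Cyp2b9. With libraries scaled to equal sums, 8 of the 11 pairs stayed opposite beyond counting error, and the exceptions were the 7KC contrasts of Igfbp3, Cyp2b10 and Cyp2b9. For Igfbp3, Selenbp2 and Cyp2b9, the 7KC pair and the diet pair hold the same difference of differences and are not separate results.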

How the results depend on the processing

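No paired analysis was possible because each group had 1 library, and no library could be left out for the same reason. Of 316 recomputed fold changes of the 10 genes, 295 moved by less than the distance from their counting interval's middle to its end. The 316 include those under other filters, which cannot change a gene's fold change, so these could not move. Irs2 was recomputed only without the filter, so its value was not put to this check. No value called past 2-fold turned direction, but few were past 2-fold, and some smaller ones changed sign under other scalings. Counts past 2-fold (higher, then lower) are given in the order WD+7KC relative to WD, CD+7KC relative to CD, WD relative to CD and WD+7KC relative to CD+7KC, and were 290 and 82, 126 and 92, 279 and 218, and 545 and 300. With a pseudocount of 1 they were 127 and 41, 58 and 42, 136 and 124, and 296 and 211. With no filter they were 978 and 440, 603 and 456, 828 and 683, and 1274 and 733. With a mean of at least 10 FPKM they were 35 and 32, 34 and 21, 60 and 77, and 106 and 151. At 1.5-fold they were 800 and 324, 469 and 325, 916 and 740, and 1261 and 889. With equal sums they were 794 and 204 in WD+7KC relative to CD+7KC. In WD+7KC relative to WD they were 488 and 49 with equal sums, and 444 and 51 with equal sums without the 20 most abundant genes, where Igfbp2 was no longer past 2-fold and 0 members were lower. Members lower in CD+7KC relative to CD numbered 1 with a pseudocount of 1 and 1 with at least 10 FPKM, and 0 were higher in WD+7KC relative to CD+7KC with at least 10 FPKM. At 1.5-fold, 1 member was higher and 2 lower in WD relative to CD, and 2 were lower in WD+7KC relative to CD+7KC. Fewer or more genes tested follow from the filters, and other causes were not tested. Among the 10 genes, depth limits Irs2 and Socs2 most, and Igfbp2 in WD+7KC rests on 136 estimated reads.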
